A study of Homo sapiens with 6 samples.

Results

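The facilitative glucose transporters of the SLC2A family were examined in HEK293 cells, a human embryonic kidney line, with and without the mitochondrial E3 ubiquitin ligase MUL1. The members were 10 genes taken by name, SLC2A1, SLC2A3, SLC2A4, SLC2A5, SLC2A6, SLC2A8, SLC2A10, SLC2A11, SLC2A12 and SLC2A13, out of 14 SLC2A genes and 57142 genes in the count files. RNA was sequenced from 3 libraries labelled HEK293 WT and 3 labelled HEK293 MUL1(-/-), in which the gene had been inactivated with CRISPR-Cas9. Both lines were grown in the same DMEM with fetal calf serum and carried no other labelled treatment. The sources used here do not say whether the 3 libraries of a genotype came from separate cultures or clones, so p-values measure only the spread between these libraries. Total counts ran from 132826900 to 149294514 in WT and from 127442585 to 128101732 in MUL1(-/-).

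SLC2A proteins, also called GLUTs, span the membrane. Most let hexoses pass down their concentration gradient, without the sodium gradient that SLC5A carriers use. SLC2A13 differs, as a proton-coupled carrier of myo-inositol. The family is split by sequence into a class of classical glucose carriers (SLC2A1, SLC2A3, SLC2A4), a class that includes the fructose carrier SLC2A5 and SLC2A11, and a class of less studied members, several of them held inside the cell (SLC2A6, SLC2A8, SLC2A10, SLC2A12, SLC2A13). SLC2A1 supplies basal glucose uptake in most cultured cells and is a known target of the hypoxia-inducible factor HIF-1, whose core binding letters are ACGTG or GCGTG.

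The targeted gene was read first as a check of the labels. MUL1 stood at 14.8, 14.5 and 18.2 CPM (counts scaled to library size by edgeR's trimmed mean of M-values) in the WT libraries and at 17.9, 15.9 and 18.4 CPM in those labelled MUL1(-/-). The log2 fold change was 0.14 (SE 0.10, edgeR quasi-likelihood adjusted p = 0.326), the genotypes overlapped, and MUL1 RNA therefore did not check the labels. Each direction below is one between libraries labelled MUL1(-/-) and libraries labelled WT. Of the 5 genes fixed as HEK293 markers, VIM, KRT8 and KRT18 were abundant in both genotypes, PAX2 fell by 1.80, KRT8 by 0.93 and VIM by 0.34 on the log2 scale, NEFM rose by 1.06, and KRT18 did not pass. The summed marker level ran from 1145 to 1312 CPM in WT and from 803.5 to 940.5 CPM in MUL1(-/-). The 4 markers of other cell types (PTPRC, PECAM1, ALB, MYOD1) were between 0.00753 and 0.397 CPM in every library, and summed to 0.549 to 0.592 CPM in WT and 0.903 to 1.09 CPM in MUL1(-/-). At these low levels PTPRC, a leukocyte gene, and PECAM1, an endothelial one, rose by 1.94 and 2.06 on the log2 scale without overlap (edgeR adjusted p = 0.000893 and 0.00388), while ALB and MYOD1 did not pass. The part of these marker changes in the SLC2A values was not tested.

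SLC2A1 rose, SLC2A4, SLC2A6, SLC2A10 and SLC2A11 fell, and the other 5 members did not pass the test. That is 1 of 10 members higher, where 18.8% of all 25231 tested genes were higher, and 4 of 10 lower, where 18.8% of all tested genes were lower by edgeR (quasi-likelihood test, adjusted p under 0.05). Under the added condition of an absolute log2 fold change above 1, no member was higher and 1 was lower, SLC2A10, where 4.23% and 3.88% of all tested genes passed in those directions. DESeq2, limma-voom and an unadjusted p under 0.05 also gave 0 members higher with that condition. Without MUL1(-/-) replicate 1, SLC2A4 also passed this condition, which made 2. The values of the genotypes did not overlap for 6 of the 10 members, against 48.6% of all tested genes. The median log2 fold change was -0.17 over the members and -0.01 over all tested genes. Of the 3 members of the classical class, 1 rose, 1 fell and 1 did not pass. SLC2A11 fell and SLC2A5 did not pass in the class with the fructose carrier, and 2 of the 5 members of the third class fell.

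**Figure D1:**
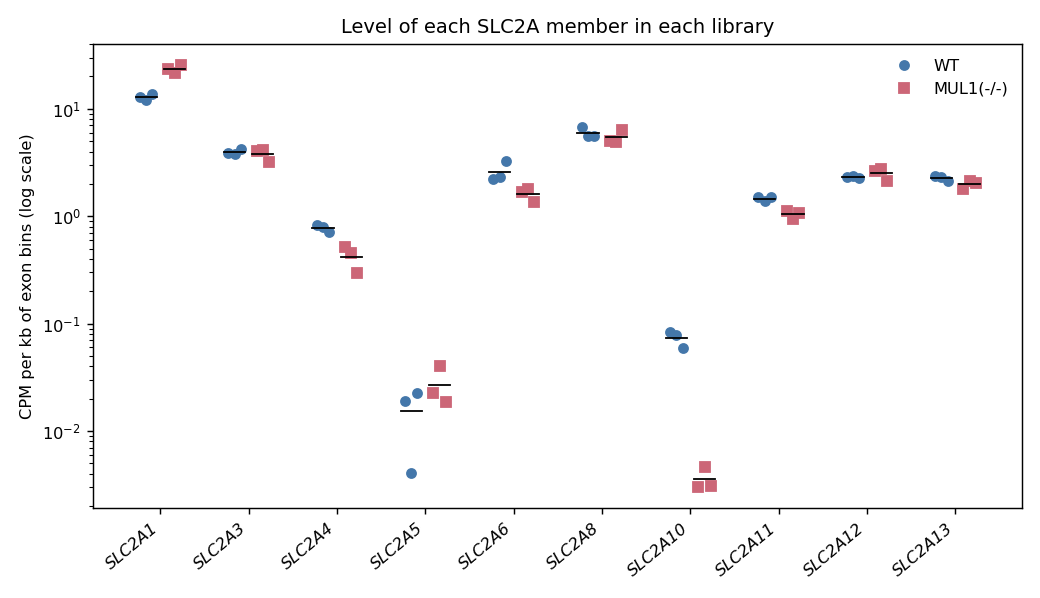
Level of the 10 SLC2A members in each of the 6 libraries, as CPM per kb of exon bins on a log axis. Circles are the 3 WT libraries, squares the 3 MUL1(-/-) libraries and black bars the group means. SLC2A1 lies above every other member in both genotypes, and the MUL1(-/-) squares lie above the WT circles for SLC2A1 and below them for SLC2A4, SLC2A6, SLC2A10, SLC2A11 and SLC2A13.

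Promoter sequences are shown for the members that passed the test and have an entry in the RefSeq promoter table (GRCh38.p14): the 250 bases before the annotated start, 5′ to 3′ on the gene's strand. They are printed because exon bins with counts reach into all 4 windows, and because a HIF-1 target heads the family. Capitals mark ACGTG and GCGTG on either strand. The windows are chr1:42958869-42959118 on the minus strand for SLC2A1, chr9:133479100-133479349 on the minus strand for SLC2A6, chr20:46709399-46709648 on the plus strand for SLC2A10, and chr22:23856684-23856933 on the plus strand for the first of the 3 entries of SLC2A11.
SLC2A1: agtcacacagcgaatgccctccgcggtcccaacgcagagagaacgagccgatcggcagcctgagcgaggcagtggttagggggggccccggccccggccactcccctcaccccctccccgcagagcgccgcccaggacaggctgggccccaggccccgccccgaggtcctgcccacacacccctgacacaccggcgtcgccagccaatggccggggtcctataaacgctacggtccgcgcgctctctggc
SLC2A6: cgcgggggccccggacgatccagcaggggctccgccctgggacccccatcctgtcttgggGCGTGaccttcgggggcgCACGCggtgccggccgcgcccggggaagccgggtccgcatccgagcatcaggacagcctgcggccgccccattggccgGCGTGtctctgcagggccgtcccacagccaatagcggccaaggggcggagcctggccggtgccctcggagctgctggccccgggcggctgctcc
SLC2A10: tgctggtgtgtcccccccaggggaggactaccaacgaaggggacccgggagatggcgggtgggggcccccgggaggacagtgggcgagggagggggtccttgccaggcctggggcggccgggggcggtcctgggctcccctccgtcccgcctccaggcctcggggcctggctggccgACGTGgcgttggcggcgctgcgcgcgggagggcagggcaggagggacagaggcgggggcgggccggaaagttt
SLC2A11: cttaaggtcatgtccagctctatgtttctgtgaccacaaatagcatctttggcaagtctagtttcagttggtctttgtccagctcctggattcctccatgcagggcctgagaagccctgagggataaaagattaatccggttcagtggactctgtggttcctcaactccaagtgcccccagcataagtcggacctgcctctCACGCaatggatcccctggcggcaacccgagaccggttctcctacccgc
The SLC2A1 window held neither core. Sequence beyond the 250 bases was not searched, so cores elsewhere near these genes would be missed. The SLC2A6 bin chr9:133479097-133479127 at the edge of its window had 20, 16 and 27 counts in WT and 9, 3 and 10 in MUL1(-/-). That window held 3 copies of GCGTG, at 190, 172 and 94 bases before the start, the middle one on the opposite strand. The SLC2A10 window held 1 ACGTG, 73 bases before the start, and the SLC2A11 window 1 GCGTG on the opposite strand. Among 35116 promoter windows of this length, 18.5% held ACGTG and 32.2% held GCGTG on either strand, and 43.2% held at least 1 of them. The E-box CACGTG, which overlaps ACGTG, was in 6.34% of all windows and in none of these 4. The table had promoters for 8 of the 10 members, and SLC2A3 and SLC2A4 were not among them.

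SLC2A1, the basal glucose carrier (ENSG00000117394, chr1:42925375-42959176, minus strand), was at 63.6, 60.0 and 68.0 CPM in WT and at 115, 106 and 126 CPM in MUL1(-/-). All 3 MUL1(-/-) libraries were above all 3 WT libraries. On average 63.9 ± 3.99 CPM in WT faced 116 ± 10.1 in MUL1(-/-) (SD of 3 libraries), a 1.81-fold difference. The log2 fold change was 0.86 (SE 0.08, edgeR adjusted p = 1.15e-06), and it lay between 0.79 and 0.93, past the threshold each time, under the 15 other fits. Per kb of exon, SLC2A1 had 13.0 ± 0.809 CPM in WT against 23.5 ± 2.05 in MUL1(-/-) (SD of n = 3). By this measure it was the most abundant member in both genotypes, and the next, SLC2A8, did not reach its range.

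SLC2A3, the high-affinity carrier known from neurons (ENSG00000059804, chr12:7919230-7936275, minus strand), was at 24.1, 23.3 and 26.0 CPM in WT and at 24.7, 25.3 and 19.9 CPM in MUL1(-/-). The genotypes overlapped and the log2 fold change was -0.07 (SE 0.10, edgeR adjusted p = 0.615). Its sign turned without MUL1(-/-) replicate 3, where the value was 0.03. SLC2A14, a near-identical copy of SLC2A3 with which reads can be shared, was at 0.393 to 0.737 CPM in WT and 0.587 to 0.725 CPM in MUL1(-/-), and did not pass, at 0.14 on the log2 scale (SE 0.23, edgeR adjusted p = 0.686).

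SLC2A4, the insulin-responsive carrier of muscle and fat (ENSG00000181856, chr17:7281667-7288257, plus strand), was at 3.36, 3.21 and 2.86 CPM in WT and at 2.08, 1.83 and 1.20 CPM in MUL1(-/-). The highest MUL1(-/-) library was below the lowest WT library. Its log2 fold change of -0.88 (SE 0.17, edgeR adjusted p = 0.000957) lay between -1.04 and -0.68 under the 15 other fits, each past the threshold. Exons of AC003688.2 covered bins with 9.19% of SLC2A4 counts. In the bins of no other gene the log2 fold change was -0.90 (adjusted p = 0.00116). Per kb, SLC2A4 had 0.777 ± 0.0646 CPM in WT against 0.421 ± 0.111 in MUL1(-/-) (SD of n = 3), well under SLC2A1 in either genotype.

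**Figure D2:**
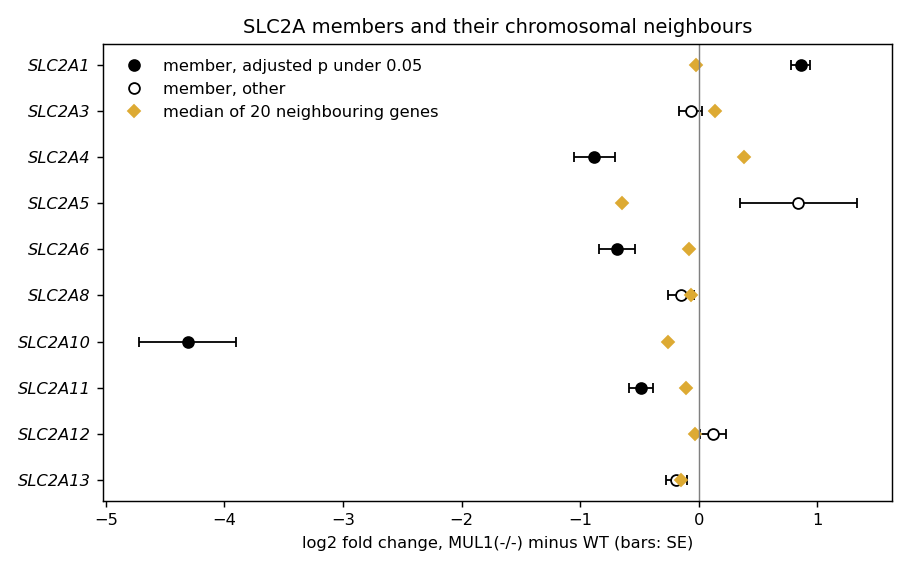
Log2 fold change of each SLC2A member, MUL1(-/-) minus WT. Diamonds are the median of 20 neighbouring tested genes, 10 on each side by start position. Filled circles have an edgeR adjusted p under 0.05 and open circles are the other members. Bars are the standard error derived from the edgeR F statistic. SLC2A10 lies at -4.31 and SLC2A1 at 0.86, while the neighbour medians lie between -0.65 and 0.38.

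SLC2A5, the fructose carrier of the intestine (ENSG00000142583, chr1:9035107-9088478, minus strand), was near the limit of detection, with 17, 4 and 20 counts in WT and 20, 35 and 16 counts in MUL1(-/-). The genotypes overlapped, with a log2 fold change of 0.84 (SE 0.49, edgeR adjusted p = 0.196). SLC2A11, which transports glucose and fructose (ENSG00000133460, chr22:23856703-23886309, plus strand), was at 13.3, 12.3 and 13.4 CPM in WT and at 9.87, 8.34 and 9.50 CPM in MUL1(-/-). All 3 MUL1(-/-) libraries were lower, with a log2 fold change of -0.49 (SE 0.10, edgeR adjusted p = 0.000943).

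The SLC2A11 value depended on which bins were counted. The files list SLC2A11 under an identifier that joins 3 genes, and only 1.90% of the counts under it lay in SLC2A11 bins. Exons of AP000350.4, AP000350.5 and other genes covered bins with 33.9% of SLC2A11 counts, and those of AP000350.5 alone bins with 13.5%. The shared bins summed to 4.77 ± 0.312 CPM in WT against 2.75 ± 0.595 in MUL1(-/-), and the bins of no other gene to 8.23 ± 0.435 and 6.48 ± 0.495 CPM (SD of n = 3). In the bins of no other gene alone the log2 fold change was -0.34 (adjusted p = 0.0206). From the most counted bin alone the sign turned and the call was lost, at 0.27 (adjusted p = 0.251).

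In the third class, SLC2A10, a carrier linked to arterial tortuosity syndrome and to dehydroascorbate transport (ENSG00000197496, chr20:46709487-46736347, plus strand), had 56, 58 and 39 counts in WT and 2, 3 and 2 counts in MUL1(-/-). No MUL1(-/-) library held more than 3 counts, and the lowest WT library was far above it. Scaled by library size, 153 counts over WT against 7 over MUL1(-/-) gave a ratio of 20.8 with an exact 95% binomial interval of 9.87 to 52.7, which covers counting error only. The edgeR log2 fold change was -4.31 (SE 0.41, adjusted p = 1.55e-06), and this fitted value depends on the prior count. The last and longest bin of the gene, chr20:46733756-46736347, held 26, 28 and 16 counts in WT and 0, 1 and 0 in MUL1(-/-). The first bin, chr20:46709487-46709698, which overlaps the printed promoter window, held 5, 6 and 2 counts in WT and 0 in each MUL1(-/-) library. The gene was low in WT already, at 0.0740 ± 0.0131 CPM per kb (SD, n = 3).

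SLC2A6, a carrier found on lysosomal membranes (ENSG00000160326, chr9:133471095-133479137, minus strand), was at 7.89, 8.16 and 11.6 CPM in WT and at 5.98, 6.38 and 4.76 CPM in MUL1(-/-). WT replicate 3 was the highest, and the genotypes did not overlap. The log2 fold change was -0.69 (SE 0.15, edgeR adjusted p = 0.00197), and -0.50 (adjusted p = 0.00735) without WT replicate 3.

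SLC2A8, an intracellular carrier (ENSG00000136856, chr9:127397138-127408424, plus strand), was at 26.9, 21.9 and 22.1 CPM in WT and at 19.6, 19.3 and 24.9 CPM in MUL1(-/-). MUL1(-/-) replicate 3 lay within the WT range, and the log2 fold change was -0.15 (SE 0.11, edgeR adjusted p = 0.303). Without that replicate it was -0.28 (adjusted p = 0.0304), past the threshold.

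SLC2A12, a carrier that also occurs in insulin-responsive tissue (ENSG00000146411, chr6:133988697-134052636, minus strand), was at 10.3, 10.6 and 10.0 CPM in WT and at 11.8, 12.4 and 9.47 CPM in MUL1(-/-). The genotypes overlapped, with a log2 fold change of 0.12 (SE 0.11, edgeR adjusted p = 0.393). Exons of TBPL1, which encodes a TBP-like factor, cover the bin with 49.7% of SLC2A12 counts. Whether the counting used strand is not given in the sources used here, so the reads of the 2 genes cannot be told apart there. That bin stood at 5.11 ± 0.263 CPM in WT against 5.60 ± 0.822 in MUL1(-/-), and the bins of no other gene at 5.18 ± 0.516 and 5.63 ± 0.849 CPM (SD of n = 3). The exact permutation test gave p = 0.5 for each.

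SLC2A13, the proton-coupled myo-inositol carrier (ENSG00000151229, chr12:39755021-40106089, minus strand), was at 23.7, 23.5 and 21.3 CPM in WT and at 18.1, 21.3 and 20.5 CPM in MUL1(-/-). The genotypes were adjacent without overlap, with a log2 fold change of -0.19 (SE 0.09, edgeR adjusted p = 0.0968). It passed the threshold without WT replicate 3, at -0.24 (adjusted p = 0.0460), and from the most counted bin alone, at -0.30 (adjusted p = 0.0421).

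The 3 other SLC2A genes of the files beside SLC2A14 were barely counted and were not tested. SLC2A2 and SLC2A7 averaged 0.00983 and 0.0163 CPM in WT and 0.00764 and 0.0304 CPM in MUL1(-/-). SLC2A9, a urate carrier, had 1, 1 and 2 counts in WT and 14, 15 and 7 counts in MUL1(-/-), a ratio of 9.45 with an exact 95% binomial interval of 3.39 to 36.5 for counting error only. All WT libraries were at or under 3 counts and all MUL1(-/-) libraries above.

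The surroundings of the members on their chromosomes were compared with the members themselves. The 20 neighbouring tested genes, 10 on each side by start position, had a median log2 fold change between -0.26 and 0.14 around 8 of the 10 members. Around SLC2A4, which fell, 18 of the 20 neighbours had a positive value and the median was 0.38, so that SLC2A4 lay 1.26 below it. Around SLC2A5 the order was the opposite, with 19 of 20 neighbours negative, a median of -0.65, and SLC2A5 1.49 above it. SLC2A1 and SLC2A10 kept nearly their whole difference after their neighbours' median was subtracted, at 0.88 and -4.05. SLC2A6 was left at -0.61 and SLC2A11 at -0.38. SLC2A13, with 16 of 20 neighbours negative, was left at -0.04, and SLC2A8 at -0.08. The remaining SLC2A3 and SLC2A12 were at -0.21 and 0.15. No test was made on these remainders.

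Summed over the members, the family stood at 174, 163 and 176 CPM in WT and at 208, 201 and 216 CPM in MUL1(-/-). All MUL1(-/-) libraries were higher, and the log2 ratio of the means was 0.29. Without SLC2A1 the order was the reverse, with 107 ± 3.45 CPM in WT against 92.6 ± 2.40 in MUL1(-/-) (SD of n = 3), a log2 ratio of -0.21, again with no overlap. No test was made on these sums. From the most counted bin of each member the log2 ratio of the whole family was 0.11.

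The make-up of the family shifted towards SLC2A1. Its share of the summed CPM was 36.6%, 36.8% and 38.7% in WT and 55.6%, 52.6% and 58.2% in MUL1(-/-), a difference of 18.1 points. The exact two-sided permutation test gave p = 0.1, the smallest that 3 libraries against 3 allow. Per kb the share went from 39.9 ± 1.02% to 58.2 ± 2.63% (SD of n = 3). The shares of 7 members were lower in MUL1(-/-) without overlap, each again with an exact p = 0.1, and since shares sum to a fixed total they move with that of SLC2A1. From the most counted bin alone, 4 members were lower without overlap. Which member gave up most depended on the scale. On summed CPM SLC2A13 moved by -3.78, SLC2A8 by -3.64, SLC2A11 by -3.17, SLC2A3 by -3.07 and SLC2A6 by -2.62 points. Per kb SLC2A8 moved by -5.13, SLC2A6 by -3.97, SLC2A3 by -2.79 and SLC2A13 by -2.08 points. From the most counted bin SLC2A13 moved by -8.82 and SLC2A8, with overlap, by -0.279 points. On summed CPM and per kb, only SLC2A5 and SLC2A12 had shares that overlapped between the genotypes.

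**Figure D3:**
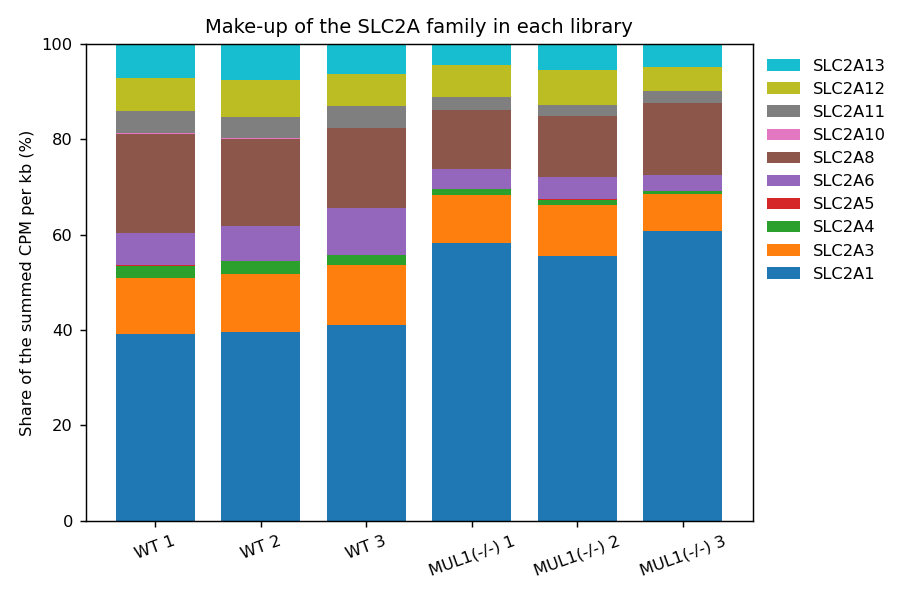
Share of each member in the summed CPM per kb of the family (%), with 1 stacked bar for each of the 6 libraries. The SLC2A1 segment fills 39.1% to 41.1% of the bar in the WT libraries and 55.6% to 60.8% in the MUL1(-/-) libraries.

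The order of the members by CPM per kb changed little. A read that spans bins can count in each of them, so this order also depends on how each gene is cut into bins. SLC2A8 has 39 bins and SLC2A12 has 5, and their summed counts were 17.3 and 2.01 times those of their most counted bin. In WT it ran SLC2A1, SLC2A8, SLC2A3, SLC2A6, SLC2A12, SLC2A13, SLC2A11, SLC2A4, SLC2A10 and SLC2A5. The neighbours SLC2A6 and SLC2A12, and SLC2A12 and SLC2A13, had overlapping library values there. In MUL1(-/-) SLC2A6 stood behind SLC2A12 and SLC2A13, and SLC2A10 behind SLC2A5, while only SLC2A12 and SLC2A13 overlapped as neighbours.

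Whether all exons of a member moved alike was tested with edgeR's differential exon usage test, which compares each bin with the whole gene. Of the 8 members that could be tested, 2 were called, SLC2A1 (adjusted p = 0.00208) and SLC2A11 (adjusted p = 0.00972), where 14.6% of the 16371 genes tested were called. Each call was lost without some single libraries and held without others. For SLC2A1 the adjusted p rose to 0.249, 0.0595 and 0.0551 without WT replicates 1, 2 and 3 and to 0.0865 without MUL1(-/-) replicate 3. For SLC2A11 it rose to 0.601 and 0.414 without WT replicates 1 and 2 and to 0.722 without MUL1(-/-) replicate 3. The SLC2A1 call held without MUL1(-/-) replicates 1 and 2 (adjusted p = 0.00249 and 0.00809). That of SLC2A11 held without the same libraries (adjusted p = 0.00586 and 7.30e-06) and without WT replicate 3 (adjusted p = 0.00151).

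The body of SLC2A1 rose evenly. The 18 of its 31 bins with a WT mean of at least 100 counts held 98.0% of its counts, and in each of them all MUL1(-/-) libraries were above all WT libraries, with ratios from 1.52 to 1.91. The bin that carried the call lay at the 5′ end, chr1:42958871-42959173, and takes in nearly all of the promoter window printed above. It had 45, 41 and 43 counts in WT and 39, 22 and 26 counts in MUL1(-/-). That put it 0.94 below the gene on the natural log scale (bin adjusted p = 1.71e-05). Exons of the divergent transcript SLC2A1-DT and of AC099795.1 share this bin. Because the use of strand in counting is not given, reads of these genes cannot be told apart there. The usage test was not run without shared bins. The bins with the next smallest p, chr1:42958860-42958868 and chr1:42951616-42951930, lay 0.53 and 0.78 below the gene and did not pass (bin adjusted p = 0.215 and 0.240).

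SLC2A11 differed along its length. The bin chr22:23880409-23882458, 2050 bases long, had 104, 90 and 109 counts in WT and 110, 99 and 136 counts in MUL1(-/-). It lay 0.53 above the gene on the natural log scale (bin adjusted p = 0.000839). Near the 5′ end, chr22:23856872-23856933, inside the printed promoter window and shared with AP000350.5, had 50, 39 and 32 counts in WT and 19, 17 and 8 counts in MUL1(-/-). It and its neighbour chr22:23856863-23856871 lay 0.61 and 0.62 below the gene without passing the test (bin adjusted p = 0.145 and 0.181).

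**Figure D4:**
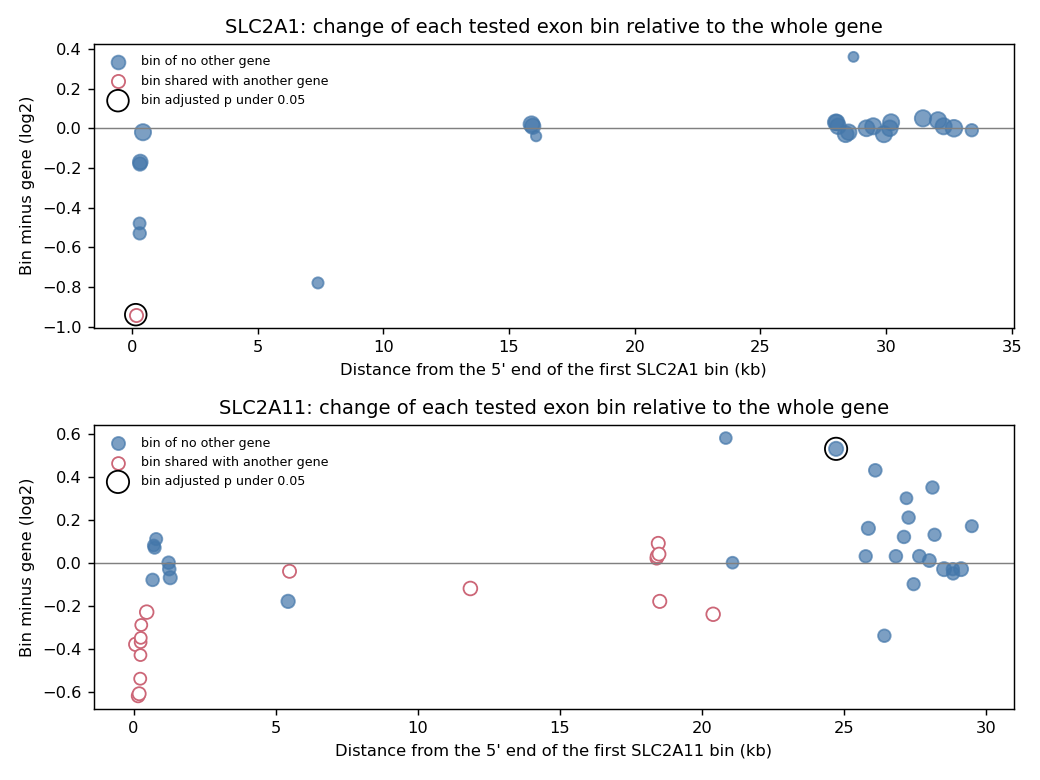
Change of each tested exon bin relative to its whole gene (MUL1(-/-) against WT), for SLC2A1 (top) and SLC2A11 (bottom). The horizontal axis is the distance from the 5′ end of the first bin. The vertical axis is labelled log2, but its values are natural logs. Point size grows with the mean WT count, open points are bins shared with another gene and rings mark a bin adjusted p under 0.05. The large SLC2A1 bins lie close to 0 and the ringed one at -0.94, while the ringed SLC2A11 bin lies at 0.53.

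Genes that work with these transporters were counted in 5 lists. Over all lists 35 of 37 genes were tested, 9 were higher and 11 lower, none of them past an absolute log2 fold change of 1 (0 as well by DESeq2, by limma-voom and at an unadjusted p under 0.05), and the median was -0.05. Over all tested genes 18.8% were higher and 18.8% lower, which is the share to set beside these counts and those of the single lists, each of at most 11 tested genes. Without MUL1(-/-) replicate 1 the number lower was 7. In the list on arrestins and recycling of SLC2A1, none of 7 genes rose and 3 fell, with a median of -0.06. TXNIP, an arrestin that drives removal of the transporter from the surface, was at 12.4, 12.1 and 11.2 CPM in WT and 7.03, 7.92 and 6.22 CPM in MUL1(-/-), a log2 fold change of -0.75 (SE 0.11, edgeR adjusted p = 5.68e-05). TXNIP was singled out after its values were seen. VPS26A and VPS29, subunits of the retromer that returns cargo to the surface, fell by 0.47 and 0.23 on the log2 scale. The 2 genes of highest mean CPM in the list, GIPC1, which binds the tail of the transporter, and the retromer subunit VPS35, were at 0.05 and 0.12 and did not pass.

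In the list on the SLC2A4 storage vesicle, 4 of 11 genes rose and 4 fell, with a median of -0.05. SORT1, the sorting receptor of the vesicle, rose by 0.34 (SE 0.07, edgeR adjusted p = 0.000767), and SNAP23, a plasma membrane SNARE, fell by 0.22 on the log2 scale (SE 0.07, adjusted p = 0.0225). The vesicle SNARE VAMP2, also singled out after its values were seen, rose by 0.74, with 22.3 ± 1.35 CPM in WT against 37.4 ± 1.13 in MUL1(-/-) (SD of n = 3). STX4, its partner on the plasma membrane, fell by 0.62.

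Among hexose-phosphorylating enzymes, which trap the sugar once it has entered, 2 of 7 tested genes rose and 1 fell, with a median of 0.04. HK1, a hexokinase that binds mitochondria, fell by 0.51 on the log2 scale, with 140 ± 6.65 CPM in WT against 98.3 ± 5.74 in MUL1(-/-) (SD of n = 3, SE 0.07, edgeR adjusted p = 4.56e-05). ADPGK, an ADP-dependent glucokinase, and KHK, which phosphorylates fructose, rose by 0.45 and 0.54. The galactokinase GALK1 was at 0.04 and did not pass (adjusted p = 0.723).

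Of 7 tested sodium-coupled and SWEET sugar carriers, 2 rose and 2 fell, with a median of 0.06. The 2 of highest mean CPM both fell, SLC50A1, a SWEET carrier, by 0.39 (SE 0.07, edgeR adjusted p = 0.000689) and the myo-inositol carrier SLC5A3 by 0.48 (SE 0.07, adjusted p = 9.37e-05). SLC5A10 and SLC5A9 rose by 0.67 and 0.79 from 2.40 and 0.251 CPM. In the list on glucose-responsive transcription, 1 of 3 genes rose and 1 fell, with a median of -0.05. MLXIP rose by 0.26 (SE 0.07, edgeR adjusted p = 0.00873), MLXIPL fell by 0.66, and their partner MLX was at -0.05 and did not pass.

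Several of these genes lay among neighbours that moved the same way. HK1 had 17 of 20 neighbours negative with a median of -0.43, which left -0.08 of its difference. VPS26A and VPS29 were each left at -0.01 and SLC50A1 at -0.10, while TXNIP was left at -0.90. Of the genes that rose, SORT1 was left at 0.13, SLC5A10 at 0.14 and VAMP2 at 0.32. MLXIPL and SLC5A3, which fell, were left at -0.27 and -0.24.

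**Figure D5:**
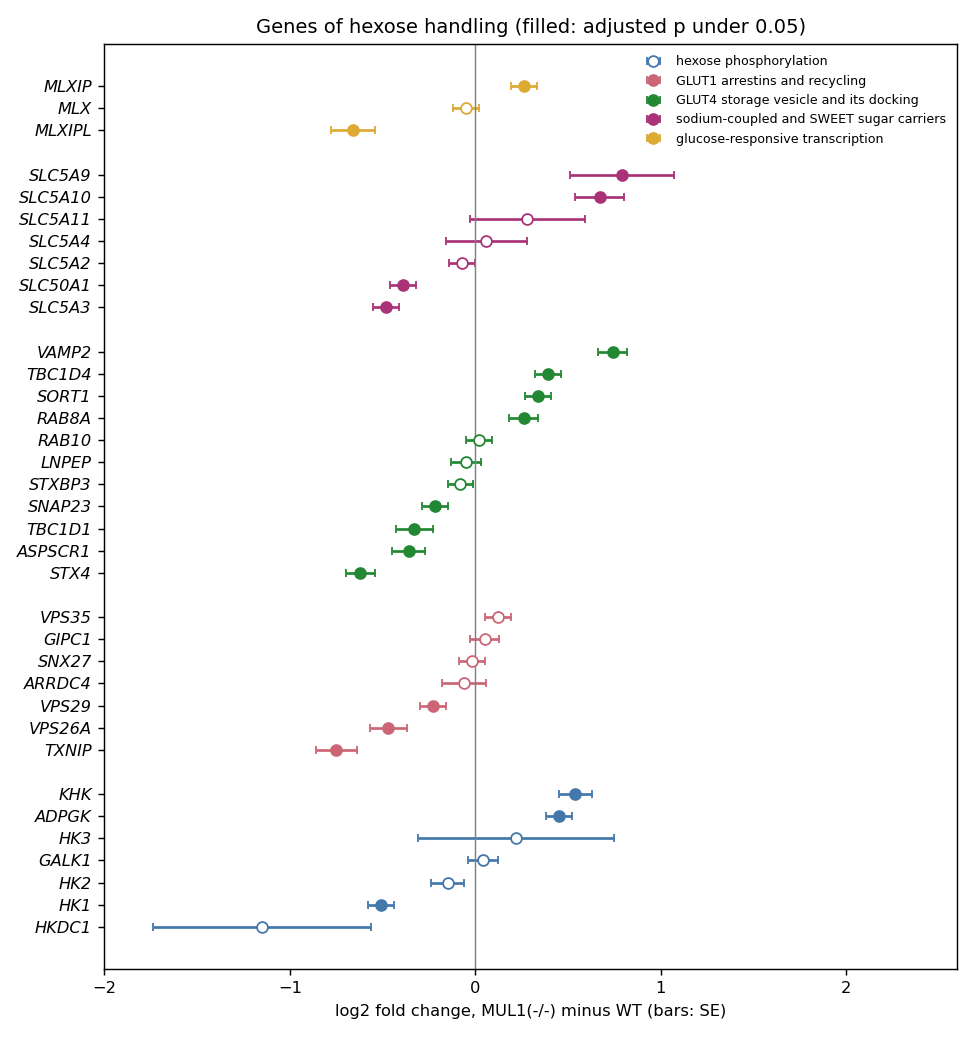
Log2 fold change, MUL1(-/-) minus WT, of the 35 tested genes in 5 lists on hexose handling (colors). Bars are the standard error derived from the edgeR F statistic. Filled points have an adjusted p under 0.05, and they lie on both sides of 0 in every list except that on SLC2A1 arrestins and recycling, where all 3 are below 0.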

How the data were processed

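RNA from 3 HEK293 WT and 3 MUL1(-/-) libraries was sequenced. Per the labels, the authors trimmed reads with Trimmomatic 0.36 and aligned them to GRCh38 with STAR 2.5.2b. They deposited raw read counts for 597973 exon bins, and the counting program is not given in the sources used here. Bins were summed per gene, so a read that spans bins can count more than once and the counting intervals are too narrow. Levels and shares compared between members therefore also depend on how many bins each gene has. Under the 2031 identifiers that join genes (21.0% of counts), each bin went to the gene whose GENCODE 29 exons cover it on the same strand, and 0.0169% of counts were left out. Of the single-gene identifiers, 96.6% had the start and end of GENCODE 29. Of 57142 genes, 56227 took their symbol from the name table.

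Genes were tested with edgeR 4.0.16 (filterByExpr, TMM, quasi-likelihood F test, Benjamini-Hochberg over 25231 genes) and bins with its diffSpliceDGE. Each SE is the absolute log2 fold change divided by the square root of the F statistic, because edgeR reports none. CPM are TMM-scaled, and CPM per kb are divided by the summed length of the bins. Shares were compared with exact two-sided permutation tests (scipy 1.17.1). Alternatives were DESeq2 1.42.0, limma-voom 3.58.1, other scalings, filters and bins, a replicate block and leaving out each library. On simulated data with 200 of 25231 genes changed by 2 on the log2 scale, edgeR recovered 185 with 11 false calls. Smaller changes, and changes in as many genes as were called here, were not simulated.

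Named were all members, MUL1, the other SLC2A genes, genes overlapping a member's bins with over 5% of its counts, at most 3 bins of a member with differential usage, and in each list the 2 genes of highest mean CPM and any past both thresholds. Other list genes named were chosen after their values were seen. The members and lists were chosen with earlier results of these data known.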

Additional observations from a re-analysis of the deposited data

How the results depend on the processing

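The calls of SLC2A1, SLC2A4 and SLC2A6 held in all 15 other fits and that of SLC2A10 in the 14 that kept it. With at least 1 CPM in 3 libraries SLC2A10 was not tested, so that 0 members were lower past both thresholds. The same filter on bins gave 0 members with differential exon bin usage, but it left SLC2A4, SLC2A6 and SLC2A11 untested. It also removed the SLC2A1 bin that carried the call, which was at most 0.339 CPM in any library. Leaving out 1 library gave 1 to 2 members lower past both thresholds, 0 to 2 with differential bin usage, and 7 to 11 list genes lower. Scaling by library totals gave 0.36 for the log2 ratio of the summed family and 0.00 for SLC2A3, a sign change that its error covers. It moved the median of all genes to 0.06. From the most counted bin alone, the summed ratio was 0.11, the SLC2A1 share rose by 13.9 points, SLC2A11 was at 0.27 and its share at 0.256 points, and 4 rather than 7 members had a lower share without overlap. SLC2A3 ran from -0.12 to 0.03 over all other fits. Same-numbered libraries correlated in their deviations at -0.0947 to 0.166 and differently numbered ones at -0.183 to 0.0985. These ranges overlap, so they do not settle whether the replicate numbers pair the libraries. With a replicate block 1 member was higher and 4 were lower, SLC2A1 was at 0.85, 2 members had differential bin usage, and MUL1 did not pass. SLC2A5 and SLC2A10 rest on at most 58 counts a library.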
